A study of Homo sapiens with 9 samples.

Results

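Cholesterol and fatty acids are built from acetyl-CoA along separate routes, and 36 genes of these routes were followed in LNCaP cells given NRG1. The genes were 18 enzymes of sterol synthesis, 4 regulators of the SREBP pathway, 3 genes of sterol transport and efflux, and 11 genes of a fatty acid arm that makes, elongates, desaturates and activates fatty acids. They were taken by gene name from a table of 37351 genes, with at least 10 counts in at least 3 of 9 libraries as the condition. All 36 had at least 10 counts in all 9 libraries, with 27 as the lowest count of any of them, so none entered only through the group in which it was high. All 36 were among the 19250 genes tested. LNCaP is an established human prostate carcinoma line. Cells of all 3 groups had been held without serum and calcium, and were then collected at 0, 12 or 24 h of treatment with recombinant NRG1, a ligand of the receptor HER3, at 15 ng/mL. Each group held 3 libraries, labelled as biological replicates of this 1 line. The design analysed here has no untreated cells at 12 or 24 h, so NRG1 and the time spent in this medium cannot be told apart. The question was how the RNA of these genes stood at 12 and 24 h relative to 0 h, whether it differed between 12 and 24 h, and how the sterol genes compared with the fatty acid arm.

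Most enzymes of sterol synthesis are transcribed under SREBP2, the product of SREBF2, and many genes of fatty acid synthesis under SREBP1, the product of SREBF1. Both proteins are held in the endoplasmic reticulum with SCAP and INSIG proteins while sterols are plentiful, and are carried to the Golgi and cut into active factors when sterols run low. SREBPs bind sterol regulatory elements, usually beside sites for NF-Y, which recognises CCAAT boxes, and for Sp1, which recognises GC boxes. Cholesterol that cells hold in excess leaves through ABCA1 and ABCG1, targets of the oxysterol receptors LXR. In prostate epithelium and its cancers, androgens are known to raise fatty acid synthase and other lipid synthesis genes.

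The promoters of the members carry letters of this system. Printed are 6 windows, from SREBF2 and from some of the members that rose at 12 h and fell by 24 h. Windows from 250 bases before to 50 bases after the annotated start were taken from RefSeq on GRCh38.p14 and were found for 31 of the 36 members. The 6 windows are SREBF2 at chr22:41832855-41833154 on the plus strand, HMGCS1 at chr5:43313363-43313662 on the minus strand, FDPS at chr1:155308616-155308915 on the plus strand, MSMO1 at chr4:165327419-165327718 on the plus strand, INSIG1 at chr7:155297628-155297927 on the plus strand and ACSS2 at chr20:34874739-34875038 on the plus strand. Each is written 5′ to 3′ on the strand of its gene, with capitals on every CCAAT box and on every match to the sterol element TCACNCCAC with at most 1 mismatch, both on either strand.
SREBF2: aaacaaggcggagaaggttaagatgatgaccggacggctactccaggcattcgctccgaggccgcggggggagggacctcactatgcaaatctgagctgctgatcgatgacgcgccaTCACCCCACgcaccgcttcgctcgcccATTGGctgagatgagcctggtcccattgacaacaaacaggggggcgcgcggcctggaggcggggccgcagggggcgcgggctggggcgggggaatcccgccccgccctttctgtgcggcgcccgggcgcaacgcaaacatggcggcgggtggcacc
HMGCS1: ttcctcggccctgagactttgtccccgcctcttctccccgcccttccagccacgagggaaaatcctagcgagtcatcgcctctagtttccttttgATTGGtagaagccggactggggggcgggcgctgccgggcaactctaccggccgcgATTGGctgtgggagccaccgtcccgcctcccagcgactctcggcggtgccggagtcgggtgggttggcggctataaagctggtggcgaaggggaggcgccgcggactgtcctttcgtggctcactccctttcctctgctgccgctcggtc
FDPS: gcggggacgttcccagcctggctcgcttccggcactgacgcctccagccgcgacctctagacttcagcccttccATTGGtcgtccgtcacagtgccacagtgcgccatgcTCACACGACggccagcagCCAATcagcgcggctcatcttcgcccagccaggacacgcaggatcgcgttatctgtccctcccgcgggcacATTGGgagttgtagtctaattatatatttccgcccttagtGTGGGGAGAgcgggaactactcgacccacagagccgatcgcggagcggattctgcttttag
MSMO1: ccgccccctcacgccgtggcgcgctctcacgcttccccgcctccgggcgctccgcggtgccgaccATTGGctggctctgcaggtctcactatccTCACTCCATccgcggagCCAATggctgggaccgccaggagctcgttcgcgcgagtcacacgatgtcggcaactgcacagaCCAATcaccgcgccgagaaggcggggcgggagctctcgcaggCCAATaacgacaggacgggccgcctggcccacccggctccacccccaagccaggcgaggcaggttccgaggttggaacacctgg
INSIG1: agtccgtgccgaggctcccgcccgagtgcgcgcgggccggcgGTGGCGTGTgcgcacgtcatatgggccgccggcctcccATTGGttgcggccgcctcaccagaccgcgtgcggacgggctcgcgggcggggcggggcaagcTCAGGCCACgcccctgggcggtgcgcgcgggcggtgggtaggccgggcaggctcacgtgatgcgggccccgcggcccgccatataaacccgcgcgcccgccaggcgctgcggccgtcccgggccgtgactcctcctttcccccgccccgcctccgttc
ACSS2: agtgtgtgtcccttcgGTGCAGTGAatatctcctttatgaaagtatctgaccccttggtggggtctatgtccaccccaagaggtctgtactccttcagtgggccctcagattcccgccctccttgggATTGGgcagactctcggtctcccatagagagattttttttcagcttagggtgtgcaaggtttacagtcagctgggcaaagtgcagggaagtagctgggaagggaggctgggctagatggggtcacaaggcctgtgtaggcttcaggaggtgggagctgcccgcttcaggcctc
SREBF2 held the sterol element without a mismatch, starting at -133 from the annotated start, with a CCAAT box at -106. The FDPS window held 2 elements with 1 mismatch and 3 CCAAT boxes, the MSMO1 window 1 and 4, the INSIG1 window 2 and 1, and the ACSS2 window 1 and 1. The printed HMGCS1 window held 2 CCAAT boxes and no match to the element. HMGCS1 and ACSS2 each had another window that is not printed. That of HMGCS1, at chr5:43313132-43313431, held neither a CCAAT box nor the element. That of ACSS2, at chr20:34876362-34876661, held 1 element with 1 mismatch and no CCAAT box. Windows of members not called higher at 12 h held such letters too, and are not printed. The MVK window, of a gene called in no comparison, held 1 element with 1 mismatch and 5 CCAAT boxes. The ELOVL5 window held 1 and 2. In 1 of the ACSL1 windows lay an exact element, 1 with 1 mismatch and 1 CCAAT box. ELOVL5 and ACSL1 were called lower than 0 h at both times. Over the members with a window, 24 of 31 (77.4%) held a CCAAT box, against 39.7% of all 27305 genes with a window. A GC box (GGGCGG) was found in 28 members (90.3%, against 48.3% of all genes) and an E-box (CACGTG) in 6 (19.4%, against 8.77%). The element with at most 1 mismatch was in 17 members (54.8%, against 28.2% of all genes), and without a mismatch in 2 (6.45%, against 1.39%), SREBF2 and ACSL1. A gene counts here if any of its windows matched, and the members had 45 windows against 35116 for all genes. By window, a CCAAT box was in 62.2% against 34.6%, and the element with at most 1 mismatch in 46.7% against 24.5%. All genes with a window were compared, whether or not their RNA was tested. By arm, 13 of 15 sterol enzymes and 8 of 10 fatty acid genes with a window held a CCAAT box, and 7 of 15 and 7 of 10 held the element with at most 1 mismatch. A match of letters describes the sequence and is not evidence of binding.

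The 0 h libraries held 58267359–60985825 counts, the 12 h libraries 48760003–54083444 and the 24 h libraries 47016302–54605125. Levels are CPM, counts scaled to a common library size, and a member was called in a comparison where its adjusted p-value from edgeR was 0.05 or less, with no minimum fold unless one is named. The median biological coefficient of variation was 3.33% over the members, against 4.07% for the common value over all tested genes. Prostate epithelial markers (9 of 9 detected, KLK3 and KRT8 the most abundant) summed to 3185–3303 CPM at 0 h, 3537–3577 CPM at 12 h and 3101–3308 CPM at 24 h. Of these 9 markers, 3 were called higher and 3 lower at 12 h, and 3 higher and 5 lower at 24 h. Fibroblast markers (4 of 7 tested, mostly COL1A1, with DCN and ASPN at or near 0) summed to 25.5–28.8, 24.6–26.6 and 26.4–26.8 CPM at the 3 times, though 1 was called higher at 12 h (COL3A1, log2 fold change 0.98) and 2 at 24 h (COL3A1, 1.32, and LUM, 0.56), leukocyte markers (1 of 4 tested, with PTPRC and CD3E at or near 0) to at most 0.473 CPM, and endothelial markers (1 of 4 tested, VWF, with PECAM1 at or near 0) to 12.7–13.7, 8.38–9.39 and 6.90–7.95 CPM. The part of these shifts in the members' values was not tested. In bulk RNA, fewer cells that express a gene and less RNA per cell cannot be told apart.

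At 12 h, most members of both arms were higher than at 0 h, by small amounts. Against 0 h, 19 of the 36 members were called higher and 7 lower at 12 h, while 10.6% of all tested genes were called higher and 8.16% lower. At 24 h, 10 were called higher and 8 lower than at 0 h, against 11.6% and 9.48% of all tested genes. Between 12 and 24 h, 20 members fell and 1 rose, ABCG1, against 3.05% and 3.03% of all tested genes. Here and below, the tested genes were not matched to the members in abundance, and a small change is more readily called in an abundant gene. The median log2 fold change over the 36 members was 0.13 at 12 h, 0.027 at 24 h and -0.12 for 24 h against 12 h, and over all tested genes -0.0084, -0.0068 and 0.0011. With a fold change of at least 1.5 asked as well, ABCA1 alone was called, lower at both times, and no member between 12 and 24 h; 2.37%, 3.31% and 0.452% of all tested genes passed this rule in the 3 comparisons. Leaving out single libraries kept the count of higher members at 12 h between 17 and 20, and the count of lower members between 12 and 24 h between 15 and 20. The count of lower members at 12 h dropped from 7 to 4 without 0 h replicate 2, 0 h replicate 3, 12 h replicate 1 or 12 h replicate 2.

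**Figure D1:**
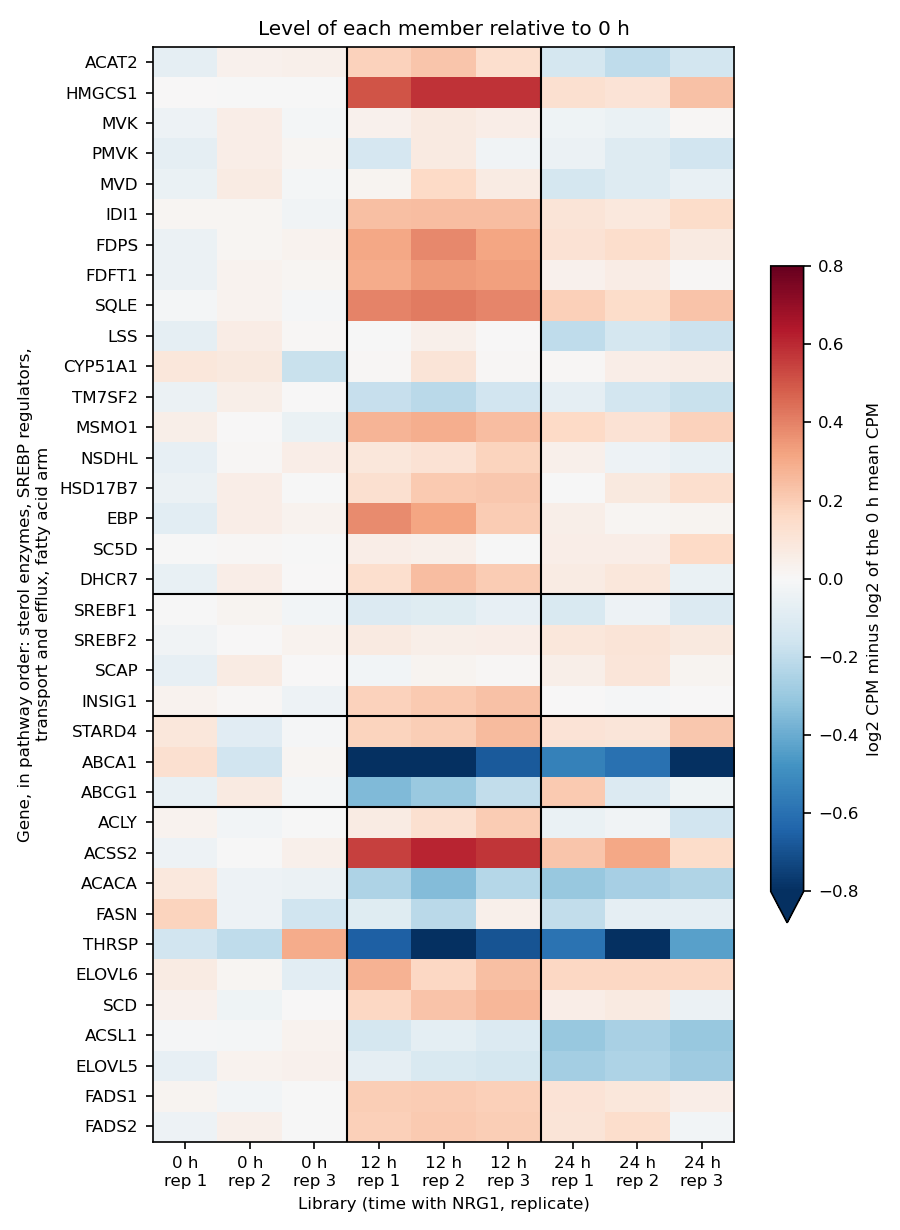
Heat map of the 36 genes (rows, in pathway order) in the 9 libraries (columns), coloured by log2 CPM minus log2 of the gene's mean CPM at 0 h, with black lines between the gene groups and the times. Red rows such as HMGCS1, SQLE and ACSS2 are deepest at 12 h and paler at 24 h, and ABCA1 and THRSP are blue at both times, some beyond the lower end of the colour scale.

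The first enzymes of sterol synthesis turn acetyl-CoA into HMG-CoA. ACAT2 (ENSG00000120437.9, chromosome 6, 159762045 to 159779112 on GRCh38, as are the positions below), which joins acetyl-CoA units into acetoacetyl-CoA, stood at 81.7, 88 and 88.4 CPM at 0 h, 97.8, 100.2 and 94.4 CPM at 12 h and 78, 74.9 and 77.7 CPM at 24 h. Its 12 h libraries lay above all others and its 24 h libraries below all others. The log2 fold changes of ACAT2 were 0.18 ± 0.037 (0.000464) at 12 h, -0.16 ± 0.038 (0.00143) at 24 h and -0.34 ± 0.038 (5.98e-08) for 24 h against 12 h. Here and below, values are log2 fold change ± SE, with the edgeR adjusted p-value in parentheses. TCP1, which overlaps ACAT2 on the opposite strand and holds 562% of its reads, had -0.020 at 12 h, -0.27 at 24 h and -0.25 between them, and the counting was not stated to use strand. SOD2, which overlaps ACAT2 by 485 bases and holds 60.3% of its reads, had -0.23 at 12 h, -0.29 at 24 h and -0.057 between them. The share of TCP1 or SOD2 reads in the ACAT2 values was not tested. HMGCS1 (ENSG00000112972.15, chromosome 5, 43287470 to 43313512), the HMG-CoA synthase of the cytosol, stood at 607, 605 and 604 CPM at 0 h, 856, 905 and 903 CPM at 12 h and 663, 652 and 713 CPM at 24 h. The 0 h libraries were within 3 CPM of each other, the 12 h libraries were far above them, and the 24 h libraries lay between. The log2 fold change of HMGCS1 was 0.55 ± 0.033 (2.63e-15) at 12 h, a rise of 46.8%, 0.16 ± 0.033 (0.000414) at 24 h and -0.39 ± 0.033 (1.37e-10) for 24 h against 12 h. In GENCODE v44 a second gene shares 2125 bases of identical sequence with HMGCS1. That gene was not among those with deposited counts, and its effect on the HMGCS1 counts was not tested.

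The mevalonate enzymes that follow did not move together. MVK, mevalonate kinase, was at 57.2, 61.1 and 58.2 CPM at 0 h, 60.2, 61.9 and 60.9 CPM at 12 h and 57.3, 56.8 and 59.2 CPM at 24 h. PMVK, the kinase after it, was at 70.0, 76.5 and 74.4 CPM at 0 h, 67.1, 77.5 and 72.2 CPM at 12 h and 71.2, 68.4 and 66.3 CPM at 24 h. The groups of both genes overlapped at 12 h and none of their comparisons was called, with log2 fold changes between -0.079 and 0.053 for MVK and between -0.10 and -0.027 for PMVK. PMVK was called at 24 h only without 0 h replicate 1 (-0.13, 0.0344), and MMAB, which overlaps MVK, held 177% of the reads of MVK. MVD, which removes a carboxyl group to give isopentenyl diphosphate, was at 85.3, 92.5 and 87.5 CPM at 0 h, 89.8, 98.8 and 92.6 CPM at 12 h and 80.2, 82.2 and 84.7 CPM at 24 h. The 24 h libraries of MVD lay below all others, and the log2 fold change was 0.084 ± 0.039 (0.141) at 12 h and -0.10 ± 0.039 (0.0598) at 24 h, neither called, and -0.19 ± 0.039 (0.00214) for 24 h against 12 h. Without 0 h replicate 2 the 12 h value of MVD was called (0.12, 0.0477), and its 24 h value was called without 0 h replicate 1 (-0.12, 0.0275) or without 24 h replicate 3 (-0.12, 0.0451). IDI1, the isomerase that makes dimethylallyl diphosphate, was at 146, 146 and 142 CPM at 0 h, 171, 172 and 172 CPM at 12 h and 155, 153 and 160.3 CPM at 24 h. FDPS, which joins these units into farnesyl diphosphate, was at 205, 214 and 216 CPM at 0 h, 262, 275 and 263 CPM at 12 h and 229, 233 and 222 CPM at 24 h. In both genes every 12 h library was above every other and every 24 h library above every 0 h library. For IDI1 the log2 fold changes were 0.24 ± 0.032 (4.43e-07) at 12 h, 0.11 ± 0.032 (0.0119) at 24 h and -0.13 ± 0.032 (0.00749) between them. For FDPS they were 0.34 ± 0.033 (7.52e-10), 0.11 ± 0.033 (0.0139) and -0.23 ± 0.033 (1.03e-05). The 24 h call was lost for IDI1 without 0 h replicate 3 (0.10, 0.0526) or without 24 h replicate 3 (0.092, 0.0691), and for FDPS without 0 h replicate 1 (0.090, 0.0579) or without 24 h replicate 2 (0.096, 0.0813), and the call between 12 and 24 h was lost for IDI1 without 24 h replicate 2 (-0.12, 0.0555).

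FDFT1 and SQLE carry the pathway into sterols, FDFT1 by joining farnesyl units into squalene and SQLE by oxidising it. FDFT1 was at 982, 1031 and 1025 CPM at 0 h, 1243, 1281 and 1269 CPM at 12 h and 1037, 1057 and 1018 CPM at 24 h. SQLE was at 175, 181 and 176 CPM at 0 h, 233, 236 and 232 CPM at 12 h and 203, 196 and 208 CPM at 24 h. The 12 h libraries of both genes stood clear of the rest. For FDFT1 the log2 fold change was 0.32 ± 0.031 (4.19e-10) at 12 h and -0.29 ± 0.031 (3.16e-08) for 24 h against 12 h, while at 24 h it was 0.035 ± 0.031 (0.482), not called. SQLE stayed higher at 24 h, at 0.19 ± 0.032 (2.22e-05) after 0.40 ± 0.032 (5.3e-12) at 12 h, and fell between the times by 0.21 ± 0.032 on the log2 scale (2.5e-05). LSS, which closes the rings to give lanosterol, was at 209.8, 230.1 and 223 CPM at 0 h, 221, 227 and 221 CPM at 12 h and 192, 201 and 196 CPM at 24 h. Its 12 h libraries lay among those of 0 h and its 24 h libraries below all others. The log2 fold change of LSS was 0.014 ± 0.034 (0.838) at 12 h, not called, -0.17 ± 0.034 (0.000268) at 24 h and -0.18 ± 0.034 (0.000467) for 24 h against 12 h.

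**Figure D2:**
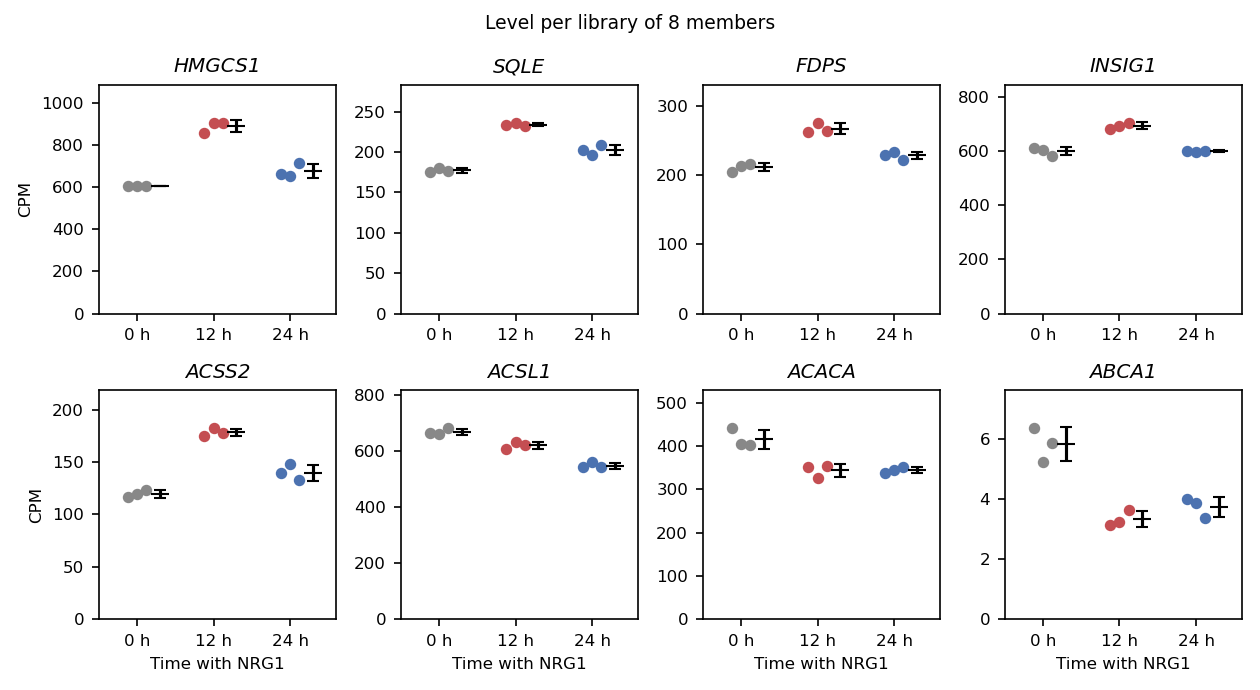
CPM in each library (points, grey 0 h, red 12 h, blue 24 h) for 8 members, with the mean ± SD of the 3 libraries beside the points and each axis starting at 0. HMGCS1, SQLE, FDPS, INSIG1 and ACSS2 peak at 12 h, ACSL1 is lower at each later time, and ACACA and ABCA1 are lower than 0 h at both.

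Among the 8 members that turn lanosterol into cholesterol, 5 were called higher at 12 h and 1 lower. Of all tested genes 10.6% were called higher and 8.16% lower, and the lower count lay near that share. CYP51A1, the lanosterol demethylase, was at 35.5, 35.3 and 29.5 CPM at 0 h, 33.6, 35.9 and 33.6 CPM at 12 h and 33.6, 34.7 and 34.8 CPM at 24 h. Its groups overlapped throughout, at 0.039 ± 0.055 (0.697) for 12 h and 0.040 ± 0.055 (0.686) for 24 h against 0 h. CYP51A1 shares up to 2846 bases of identical sequence with other genes annotated in GENCODE v44, so its counts are uncertain. TM7SF2, a sterol reductase, was at 187, 199.5 and 193 CPM at 0 h, 170.0, 166 and 174 CPM at 12 h and 184, 175 and 171 CPM at 24 h, and was the sterol enzyme called lower at 12 h, with -0.19 ± 0.034 (0.000107) at 12 h, -0.13 ± 0.034 (0.00416) at 24 h and 0.054 ± 0.035 (0.434) for 24 h against 12 h. Its 0 h libraries were above all later ones, and VPS51, which overlaps it by 18 bases and holds 98.2% of its reads, had -0.089 at 12 h and 0.0075 at 24 h, neither called. MSMO1, the sterol methyl oxidase, was at 246, 238 and 229 CPM at 0 h, 287, 291 and 282 CPM at 12 h and 266, 258 and 270.2 CPM at 24 h. Its 12 h libraries were the highest and its 24 h libraries were above 0 h, with 0.27 ± 0.032 (7.97e-08), 0.15 ± 0.033 (0.000515) and -0.12 ± 0.032 (0.0256) in the 3 comparisons. The last of these was lost without any one of 12 h replicates 1 and 2, and 24 h replicates 1 and 2 (log2 fold changes of -0.12 to -0.098, adjusted p-values of 0.068 to 0.146).

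NSDHL, which acts with MSMO1 in removing methyl groups, was at 52.8, 55.7 and 57.3 CPM at 0 h, 58.9, 59.9 and 62.4 CPM at 12 h and 56.9, 53.7 and 52.9 CPM at 24 h. HSD17B7, the ketosteroid reductase of the same steps, was at 59.4, 63.7 and 61.2 CPM at 0 h, 67.2, 71.1 and 71.3 CPM at 12 h and 61.4, 64.9 and 67.5 CPM at 24 h. Their 12 h libraries lay above those of 0 h, and for HSD17B7 the 24 h replicate 3 (67.5 CPM) reached the lowest 12 h library (67.2 CPM). NSDHL had log2 fold changes of 0.13 ± 0.042 (0.0246) at 12 h, -0.019 ± 0.042 (0.811) at 24 h and -0.15 ± 0.042 (0.0258) between them. HSD17B7 had 0.19 ± 0.041 (0.000906), 0.074 ± 0.041 (0.227) and -0.11 ± 0.041 (0.104). The calls of NSDHL were lost at 12 h without 0 h replicate 1 (0.10, 0.122) or without 12 h replicate 3 (0.11, 0.12), and between 12 and 24 h without any one of 12 h replicates 2 and 3, and 24 h replicates 2 and 3 (log2 fold changes of -0.15 to -0.13, adjusted p-values of 0.0668 to 0.14). HSD17B7 has a near-identical pseudogene, HSD17B7P2, with 8.26% of its reads. EBP, the sterol isomerase, was at 36.1, 39.6 and 38.9 CPM at 0 h, 49.7, 47.4 and 44 CPM at 12 h and 39.4, 38.6 and 38.8 CPM at 24 h. DHCR7, which reduces 7-dehydrocholesterol in the final steps, was at 300.1, 325 and 314 CPM at 0 h, 343, 371 and 361 CPM at 12 h and 328, 333 and 302 CPM at 24 h. In both genes every 12 h library was above all others. EBP had 0.30 ± 0.047 (7.72e-06), 0.027 ± 0.047 (0.76) and -0.27 ± 0.047 (0.000157) in the 3 comparisons. DHCR7 had 0.19 ± 0.037 (0.000191), 0.037 ± 0.037 (0.556) and -0.16 ± 0.037 (0.00644). Both were called at 12 h and between the times. DHCR7 lost the latter call without 12 h replicate 2 (-0.13, 0.0707) or without 24 h replicate 3 (-0.12, 0.0769). SC5D, the desaturase before DHCR7, was at 147, 149 and 147 CPM at 0 h, 153, 152 and 148 CPM at 12 h and 153, 154 and 165 CPM at 24 h. None of its comparisons was called, at 0.031 ± 0.034 (0.605), 0.090 ± 0.034 (0.0549) and 0.059 ± 0.034 (0.361), though its 24 h value was called without 12 h replicate 2 (0.095, 0.0471) or without 24 h replicate 1 (0.11, 0.0446).

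**Figure D3:**
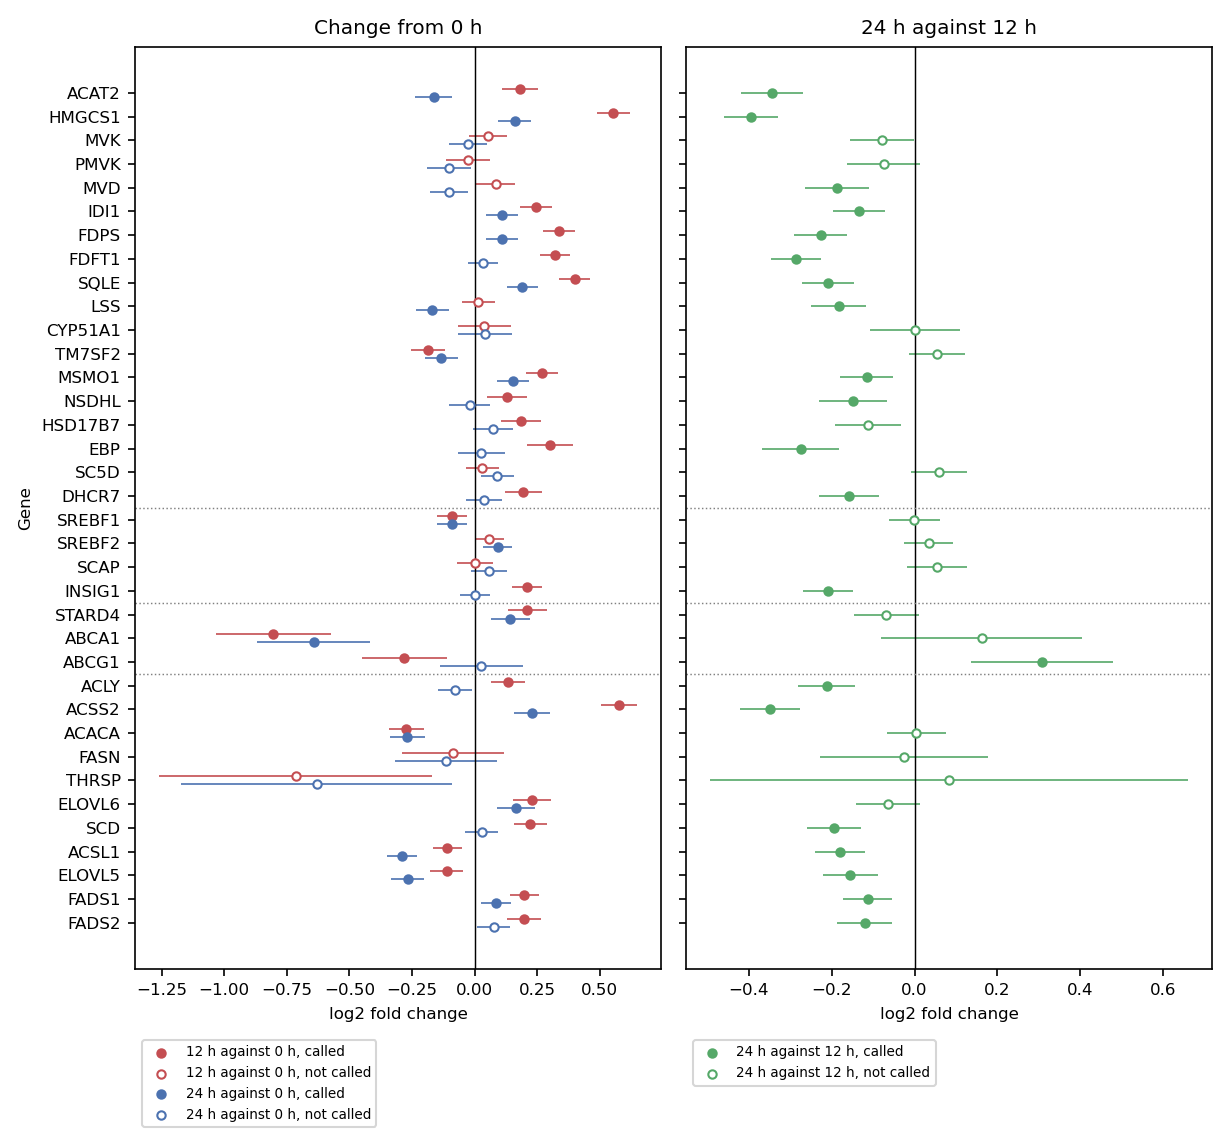
Fold changes of the 36 genes on the log2 scale with approximate 95% intervals, on the left for 12 h (red) and 24 h (blue) against 0 h and on the right for 24 h against 12 h (green), with filled points where the adjusted p-value from edgeR was 0.05 or less. In the right panel 20 filled points lie below 0 and 1, ABCG1, above it, while the widest intervals on the left belong to THRSP and ABCA1, the members with the lowest counts per kilobase.

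Of the 4 regulators, INSIG1 moved with the enzymes. INSIG1 (ENSG00000186480.13, chromosome 7, 155297776 to 155310235), a retention protein of the SREBP pathway and a known SREBP target, was at 612, 604 and 584 CPM at 0 h, 681, 695 and 706 CPM at 12 h and 603, 597 and 602 CPM at 24 h. Every 12 h library was above the other 6, and the 24 h libraries lay within the range of 0 h. The log2 fold change was 0.21 ± 0.030 (2.22e-06) at 12 h, 0.00090 ± 0.030 (0.989) at 24 h and -0.21 ± 0.030 (1.03e-05) for 24 h against 12 h. SREBF2 (ENSG00000198911.12, chromosome 22, 41833079 to 41907307), the factor gene whose promoter holds the exact element printed above, was at 757, 771 and 785 CPM at 0 h, 811, 795 and 802 CPM at 12 h and 821, 829.6 and 814 CPM at 24 h. SREBF1 (ENSG00000072310.18, chromosome 17, 17810399 to 17837002), the gene of the other factor, was at 447, 456 and 441 CPM at 0 h, 416, 418 and 429 CPM at 12 h and 412, 435 and 415 CPM at 24 h. The 0 h libraries were the lowest for SREBF2 and the highest for SREBF1 at both times. SREBF2 had 0.058 ± 0.030 (0.192) at 12 h, not called, 0.091 ± 0.030 (0.0236) at 24 h and 0.034 ± 0.030 (0.601) between the times. SREBF1 had -0.090 ± 0.031 (0.0378), -0.091 ± 0.031 (0.0332) and -0.00061 ± 0.031 (0.995). These calls lay near the threshold. With all libraries but no filter on counts, SREBF1 lost its 12 h call (-0.090, 0.0637) and SREBF2 its 24 h call (0.087, 0.0543). SREBF2 lost its 24 h call without any one of 0 h replicate 1, and 24 h replicates 1 and 2 (log2 fold changes of 0.082 to 0.095, adjusted p-values of 0.0573 to 0.09). SREBF1 lost its 12 h call without any one of 0 h replicates 1, 2 and 3, 12 h replicates 1, 2 and 3, and 24 h replicate 1 (log2 fold changes of -0.10 to -0.076, adjusted p-values of 0.0511 to 0.162). It lost its 24 h call without any one of 0 h replicates 1, 2 and 3, 12 h replicates 1 and 2, and 24 h replicates 1 and 3 (log2 fold changes of -0.098 to -0.073, adjusted p-values of 0.051 to 0.18). RAI1, which overlaps SREBF1 and holds 23.9% of its reads, had -0.018 at 12 h and 0.13 at 24 h. SCAP, the escort protein of both SREBPs, was at 92.1, 101 and 96.6 CPM at 0 h, 94.9, 98.2 and 97 CPM at 12 h and 99.9, 103 and 98.1 CPM at 24 h. Its groups overlapped, at 0.0026 ± 0.037 (0.975) for 12 h and 0.058 ± 0.037 (0.301) for 24 h against 0 h.

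The transport genes moved in both directions. STARD4, a carrier of cholesterol between membranes and a known SREBP target, was at 155, 136 and 144 CPM at 0 h, 164, 166 and 173 CPM at 12 h and 157, 155 and 168 CPM at 24 h. Its later libraries were all above those of 0 h, though 0 h replicate 1 (154.5 CPM) lay just below the lowest 24 h library (154.8 CPM). The log2 fold change of STARD4 was 0.21 ± 0.040 (0.000197) at 12 h, 0.14 ± 0.040 (0.00877) at 24 h and -0.068 ± 0.040 (0.373) between them. The 24 h call of STARD4 was lost without 0 h replicate 2 (0.10, 0.0831) or without 24 h replicate 3 (0.10, 0.0788). ABCA1 (ENSG00000165029.17, chromosome 9, 104781006 to 104928155), which exports cholesterol to apolipoprotein A-I, was at 6.37, 5.24 and 5.89 CPM at 0 h, 3.13, 3.25 and 3.66 CPM at 12 h and 4.01, 3.86 and 3.36 CPM at 24 h. All 0 h libraries were above all later ones, and its change was the largest of the members by size, at -0.80 ± 0.12 (2.64e-06) at 12 h (-42.8%) and -0.64 ± 0.12 (5.87e-05) at 24 h (-36%), with 0.16 ± 0.12 (0.532) between the times. ABCG1, which exports cholesterol to HDL, was at 9.26, 10.2 and 9.54 CPM at 0 h, 7.54, 7.87 and 8.43 CPM at 12 h and 11.2, 8.96 and 9.43 CPM at 24 h. Its 12 h libraries were the lowest, and its 24 h libraries overlapped those of 0 h, with -0.28 ± 0.087 (0.0184) at 12 h, 0.026 ± 0.085 (0.879) at 24 h and 0.31 ± 0.088 (0.0271) for 24 h against 12 h. ABCG1 lost its 12 h call without any one of 0 h replicate 2, and 12 h replicates 1 and 2 (log2 fold changes of -0.27 to -0.24, adjusted p-values of 0.064 to 0.106), and its call between the times without any one of 12 h replicates 1 and 2, and 24 h replicate 1 (log2 fold changes of 0.21 to 0.30, adjusted p-values of 0.0962 to 0.222).

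In the fatty acid arm, the suppliers of acetyl-CoA were called higher at 12 h, ACACA was called lower and FASN was not called. ACLY, which makes acetyl-CoA from citrate, was at 1159, 1118 and 1134 CPM at 0 h, 1191, 1243 and 1309 CPM at 12 h and 1095, 1114 and 1022 CPM at 24 h. ACSS2 (ENSG00000131069.20, chromosome 20, 34872146 to 34927962), which makes it from acetate, was at 116, 119 and 123 CPM at 0 h, 175, 182 and 178 CPM at 12 h and 139.6, 148 and 132 CPM at 24 h. Both genes were highest at 12 h, and ACSS2 was also above 0 h in every 24 h library. ACSS2 had the largest rise of the members, with 0.58 ± 0.037 (1.04e-14) at 12 h (49.2%), 0.23 ± 0.037 (1.06e-05) at 24 h and -0.35 ± 0.037 (2.12e-08) between them. GGT7, which overlaps ACSS2 and holds 16.5% of its reads, had -0.012 at 12 h, 0.23 at 24 h and 0.24 between them. The GGT7 values at 24 h and between the times were called. The share of GGT7 reads in the ACSS2 values was not tested. ACLY had 0.13 ± 0.035 (0.00477), -0.078 ± 0.035 (0.115) and -0.21 ± 0.035 (8.71e-05), and its 12 h call was lost without 12 h replicate 3 (0.10, 0.0692). ACACA, the acetyl-CoA carboxylase that commits carbon to fatty acids, was at 441, 404 and 402 CPM at 0 h, 351, 327 and 355 CPM at 12 h and 338, 345 and 353 CPM at 24 h. FASN, the fatty acid synthase, was at 2251, 1933 and 1779 CPM at 0 h, 1859.9, 1714 and 2041 CPM at 12 h and 1735, 1888 and 1894 CPM at 24 h. All later ACACA libraries were below all at 0 h, and the FASN groups overlapped. ACACA fell by 0.27 ± 0.036 on the log2 scale at 12 h (5.41e-07) and by 0.27 ± 0.036 at 24 h (5.3e-07), with 0.0045 ± 0.036 (0.97) between the times. FASN was called in no comparison, at -0.087 ± 0.10 (0.66), -0.11 ± 0.10 (0.548) and -0.025 ± 0.10 (0.938), and its SE was as large as its changes or nearly so. THRSP, a small regulator of lipid synthesis, was at 0.839, 0.811 and 1.15 CPM at 0 h, 0.593, 0.53 and 0.578 CPM at 12 h and 0.618, 0.497 and 0.691 CPM at 24 h. Its later libraries were below those of 0 h, with -0.71 ± 0.28 (0.0695) at 12 h and -0.63 ± 0.28 (0.107) at 24 h, neither called, and NDUFC2, which overlaps it, held 2670% of its reads.

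The elongases, desaturases and the activating enzyme divided. ELOVL6, which lengthens C16 chains, was at 79.2, 76.5 and 71.2 CPM at 0 h, 91.7, 85 and 89.3 CPM at 12 h and 84.7, 84.9 and 84.8 CPM at 24 h. SCD, the stearoyl-CoA desaturase, was at 3229, 3084 and 3162 CPM at 0 h, 3546, 3704 and 3802 CPM at 12 h and 3273, 3325 and 3062 CPM at 24 h. Both were highest in every 12 h library. ELOVL6 was still higher at 24 h, with 0.23 ± 0.039 (3.69e-05), 0.16 ± 0.039 (0.00179) and -0.063 ± 0.039 (0.405) in the 3 comparisons. SCD had 0.22 ± 0.033 (4.2e-06), 0.028 ± 0.033 (0.632) and -0.19 ± 0.033 (0.000147). FADS1, the delta-5 desaturase of polyunsaturated fatty acids, was at 431, 418 and 424 CPM at 0 h, 487, 489 and 485 CPM at 12 h and 458, 452 and 441 CPM at 24 h. FADS2, the delta-6 desaturase, was at 2164, 2290.0 and 2225 CPM at 0 h, 2538, 2569 and 2547 CPM at 12 h and 2395, 2452 and 2194 CPM at 24 h. Every 12 h library of both genes was above the other 6. FADS1 had 0.20 ± 0.030 (5.12e-06), 0.086 ± 0.030 (0.0372) and -0.11 ± 0.030 (0.0179). FADS2 had 0.20 ± 0.034 (4.52e-05), 0.076 ± 0.034 (0.116) and -0.12 ± 0.034 (0.026). FADS1 and FADS2 overlap on opposite strands, and the counting was not stated to use strand, so their values are not independent.

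The smaller of the FADS calls changed when single libraries were left out. FADS1 lost its 24 h call without any one of 0 h replicates 2 and 3, and 24 h replicates 1 and 2 (log2 fold changes of 0.076 to 0.090, adjusted p-values of 0.0691 to 0.146). Its call between the times was lost without any one of 12 h replicates 1, 2 and 3, and 24 h replicates 2 and 3 (log2 fold changes of -0.12 to -0.097, adjusted p-values of 0.0513 to 0.101). FADS2 lost its call between the times without any one of 12 h replicates 1, 2 and 3, and 24 h replicate 3 (log2 fold changes of -0.12 to -0.074, adjusted p-values of 0.0707 to 0.246), and its 24 h value was called without 24 h replicate 3 (0.12, 0.00489). ACSL1, which activates long-chain fatty acids with coenzyme A, was at 666, 663 and 683 CPM at 0 h, 609, 635 and 622 CPM at 12 h and 543, 561 and 542 CPM at 24 h. ELOVL5, an elongase of polyunsaturated chains, was at 182, 194 and 196 CPM at 0 h, 182, 175 and 173 CPM at 12 h and 158, 161 and 157 CPM at 24 h. All ACSL1 libraries at 24 h were below all at 12 h, which were below all at 0 h. The 24 h libraries of ELOVL5 were the lowest, and its 12 h replicate 1 (181.8 CPM) lay just below the lowest 0 h library (182.4 CPM). ACSL1 had -0.11 ± 0.030 (0.00925), -0.29 ± 0.030 (2.72e-09) and -0.18 ± 0.030 (0.000122). ELOVL5 had -0.11 ± 0.034 (0.017), -0.27 ± 0.034 (1.44e-07) and -0.16 ± 0.034 (0.00301). Both fell further from 12 to 24 h. Their 12 h calls were lost for ACSL1 without 0 h replicate 3 (-0.093, 0.0599) or without 12 h replicate 1 (-0.090, 0.0817), and for ELOVL5 without any one of 0 h replicates 2 and 3, and 12 h replicates 2 and 3 (log2 fold changes of -0.10 to -0.090, adjusted p-values of 0.0723 to 0.108).

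Side by side, more members of either arm were called higher than lower at 12 h. Of 18 sterol enzymes 11 were called higher and 1 lower at 12 h, and of 11 fatty acid genes 6 and 3. Of all tested genes 10.6% were called higher and 8.16% lower, and the 1 sterol enzyme called lower lay near that share. The median log2 fold change was 0.18 (range -0.19 to 0.55) for the sterol enzymes and 0.13 (-0.71 to 0.58) for the fatty acid arm. At 24 h, 5 sterol enzymes were called higher (HMGCS1, IDI1, FDPS, SQLE and MSMO1) and 3 lower (ACAT2, LSS and TM7SF2), with a median of 0.036, and 3 fatty acid genes higher (ACSS2, ELOVL6 and FADS1) and 3 lower (ACACA, ACSL1 and ELOVL5), with a median of -0.078. Between 12 and 24 h, 12 sterol enzymes and 7 fatty acid genes fell and none of either rose, with medians of -0.15 and -0.12. Of all tested genes 11.6% were called higher and 9.48% lower at 24 h, and 3.03% and 3.05% between the times. The fatty acid median at 24 h was -0.0098 without 0 h replicate 1 and -0.041 without 24 h replicate 3. The sterol median at 24 h was 0.013 without 0 h replicate 1 and 0.060 without 0 h replicate 2.

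As a mean over genes of log2 CPM relative to 0 h, the sterol enzymes stood at 0.152, 0.203 and 0.166 in the 12 h libraries and at 0.0180, 0.00954 and 0.0251 at 24 h. The same mean for the fatty acid arm was 0.0277, 0.00347 and 0.0547 at 12 h and -0.0916, -0.0843 and -0.103 at 24 h. Every 12 h library was above every 0 h library for the sterol enzymes, whose SD at 0 h was 0.0345, and the 12 h libraries of the fatty acid arm overlapped those of 0 h, where the SD was 0.0210. As a median over genes in place of the mean, the fatty acid arm stood at 0.0679, 0.129 and 0.193 at 12 h, above every 0 h library (at most 0.0242), and at -0.0541, -0.0286 and -0.0629 at 24 h. The low mean of this arm rested in part on THRSP, the member with the fewest counts, which was not called. Without THRSP the mean of the arm at 12 h was 0.0982 ± 0.0231, against 0.0286 ± 0.0256 with it (SD, n = 3).

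The difference between the arms depended on how their genes were summarised. As a mean over genes, sterol minus fatty acid averaged 0.145 ± 0.0474 at 12 h and 0.111 ± 0.0172 at 24 h (SD, n = 3), against an SD of 0.0548 at 0 h. As a median it averaged 0.0497 ± 0.0463 at 12 h, where the libraries (0.0641, 0.0871 and -0.00201) overlapped those of 0 h (-0.0705, 0.0625 and -0.000388), and 0.0860 ± 0.00753 at 24 h. As a mean without THRSP it averaged 0.0754 ± 0.0424 at 12 h and 0.0602 ± 0.0407 at 24 h, and libraries of both times overlapped those of 0 h. The members had been chosen with results of these data known, so no test of these means was made. In summed CPM, which weights each gene by its abundance, both arms were highest at 12 h. The sterol enzymes took 0.376% ± 0.00744 of the scaled total at 0 h, 0.455% ± 0.00833 at 12 h and 0.389% ± 0.00125 at 24 h, and the fatty acid arm 1.04% ± 0.0276, 1.13% ± 0.0307 and 1.02% ± 0.0325 (SD, n = 3).

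**Figure D4:**
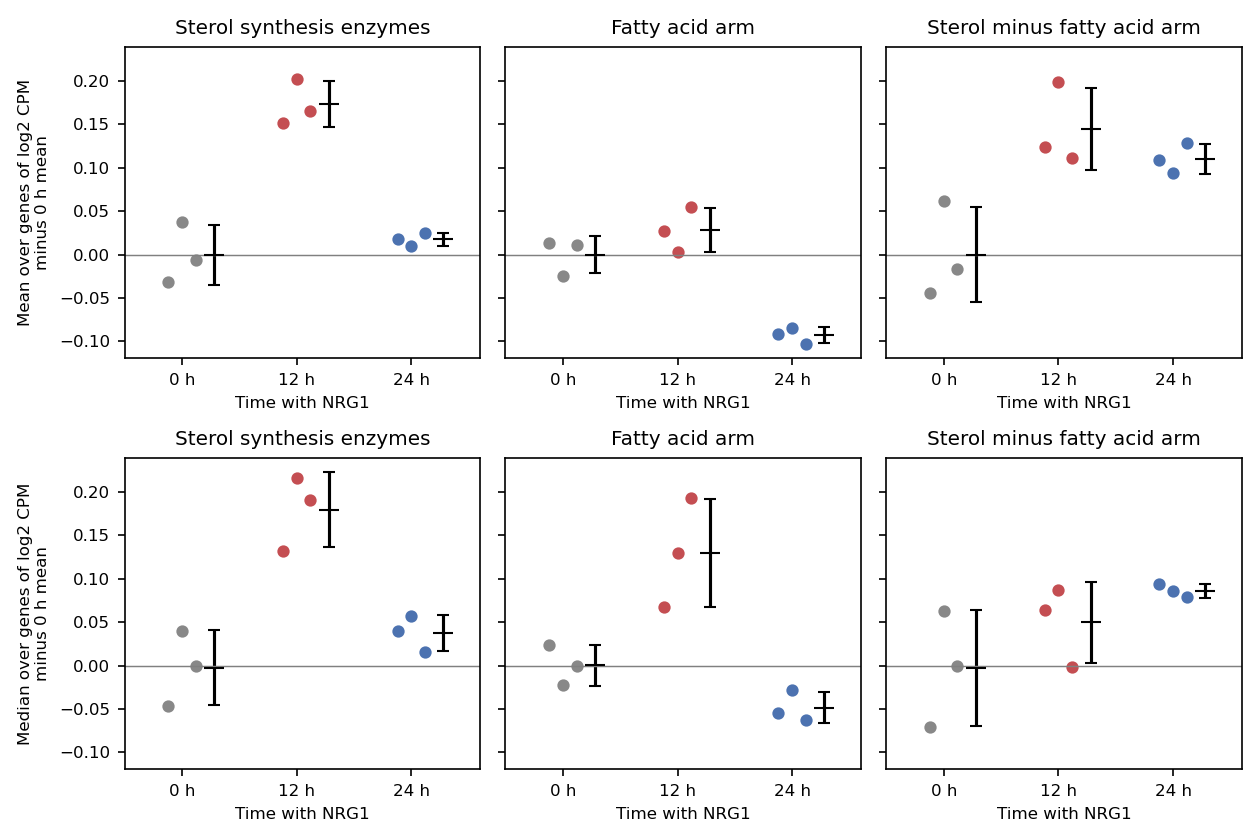
Mean over the genes of an arm of log2 CPM minus the 0 h mean, per library (points) with the mean ± SD of 3 libraries, for the 18 sterol enzymes, the 11 fatty acid genes and their difference, with the median over genes in place of the mean in the lower row. The sterol enzymes lie at 0.152 to 0.203 at 12 h by the mean, while the fatty acid arm lies at 0.00347 to 0.0547 by the mean and at 0.0679 to 0.193 by the median, so the difference at 12 h is smaller in the lower row.

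The commonest course was a rise at 12 h followed by a fall. Of the 36 members, 16 were called higher at 12 h than at 0 h and lower at 24 h than at 12 h, against 0.857% of all tested genes. Of these 16, 7 were still called higher than 0 h at 24 h (HMGCS1, IDI1, FDPS, SQLE, MSMO1, ACSS2 and FADS1), and ACAT2 was called lower. The 16 were 10 sterol enzymes, INSIG1 and 5 genes of the fatty acid arm (ACLY, ACSS2, SCD, FADS1 and FADS2). In 17 members every 12 h library was above the other 6, against 4.31% of all tested genes, with ELOVL6 as the addition. The comparisons of 12 h with 0 h and of 24 h with 12 h share the 12 h libraries, so a high 12 h value enters both. The share of the 12 h rise in CPM still present at 24 h had a median of 30.1% over the 19 members called higher at 12 h. It was 25.0% over 11 sterol enzymes and 36.0% over 6 fatty acid genes, and ran from -80.0% for ACAT2, which ended below its start, to 70.6% for ELOVL6. ACLY (-53.8%) and NSDHL (-13.8%) also stood below their 0 h mean. INSIG1 kept 0.406%, EBP 8.09%, FDFT1 9.88%, SCD 11.7%, HMGCS1 25.0%, ACSS2 34.8%, SQLE 44.2%, MSMO1 54.8% and STARD4 66.0%. A further 6 members were called lower than 0 h at both times, against 5.05% of all tested genes: TM7SF2, SREBF1, ABCA1, ACACA, ACSL1 and ELOVL5. No comparison called MVK, PMVK, CYP51A1, SC5D, SCAP, FASN or THRSP.

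The changes sat on very different levels. Per kilobase of exon, SCD was the most abundant member at 0 h, at 602 CPM per kilobase, followed by ACLY (218), FASN (213), FADS2 (211), FDFT1 (199) and INSIG1 (164). HMGCS1 stood at 91.3 CPM per kilobase, SREBF2 at 95.7, SREBF1 at 54.4, SQLE at 41.2 and ACSS2 at 22.8. The lowest levels were those of ABCG1 (1.58), THRSP (0.794) and ABCA1 (0.515). The largest fold changes were thus not those of the most abundant genes, and the wide SE of ABCA1 and THRSP goes with their low counts.

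Of 68 other genes listed for the same pathways, 65 were tested. At 12 h, 14 of them were called higher and 7 lower, at 24 h 10 and 9, and between the times 2 rose and 11 fell, with median log2 fold changes of 0.028, -0.015 and -0.025. All tested genes were called higher and lower in 10.6% and 8.16% at 12 h, 11.6% and 9.48% at 24 h, and 3.03% and 3.05% between the times, so that the counts at 24 h and the lower count at 12 h lay near the background. Of 5 other sterol synthesis genes, 2 rose at 12 h and 3 fell from 12 to 24 h. Of 9 genes of SREBP processing and sterol sensing, 2 rose at both times and none fell. These were INSIG2, which holds SCAP as INSIG1 does (0.22 ± 0.047 (0.00101) and 0.21 ± 0.047 (0.00142)), and SPRING1, which takes part in SREBP cleavage (0.25 ± 0.035 (9.2e-07) and 0.21 ± 0.035 (2.42e-05)). Of 10 genes of sterol uptake and transport, 2 rose and 1 fell at each time. SCARB1, the HDL receptor, had 0.31 ± 0.035 (1.65e-08) at 12 h and 0.15 ± 0.035 (0.00102) at 24 h, and MYLIP, a ubiquitin ligase for lipoprotein receptors and a target of LXR, had -0.19 ± 0.063 (0.0315) at 12 h.

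Of 19 other genes of fatty acid synthesis and activation, 4 rose and 2 fell at 12 h, and 3 rose and 2 fell at 24 h, and the counts at 24 h and the lower count at 12 h were again near the background. ACSL4, an acyl-CoA synthetase that prefers arachidonic acid, had 0.54 ± 0.055 (1.51e-09) at 12 h and 0.54 ± 0.055 (1.08e-09) at 24 h, opposite in sign to ACSL1. ACACB, the carboxylase of the mitochondrial surface, fell with ACACA, by 0.42 ± 0.071 on the log2 scale at 12 h (3.55e-05) and 0.29 ± 0.071 at 24 h (0.00233). ELOVL7, an elongase of long saturated chains, had -0.27 ± 0.048 (6.27e-05) at 24 h and -0.37 ± 0.049 (1.62e-06) for 24 h against 12 h.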

How the data were processed

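RNA from 9 LNCaP cultures was sequenced as read pairs from poly(A) libraries. Per the study's methods, the authors used Cutadapt for trimming, STAR for alignment to GRCh38, and featureCounts with a GENCODE annotation for counting reads per gene. Whether counting used strand, and what was done with reads of several matches, is not given in the sources used here. The deposited values were raw counts, 1 column per library, and 14 empty columns were not used. The study's methods state that 1 LNCaP library of time 0 was left out for quality without naming its experiment, and all 3 libraries at 0 h were used here. Groups and replicate numbers came from the sample titles.

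Genes were kept with filterByExpr, scaled by TMM (factors 0.993 to 1.02) and fitted together over the 9 libraries with edgeR 4.0.16 (robust quasi-likelihood, no covariate), with Benjamini-Hochberg adjustment over 19250 genes. Each SE was derived from the edgeR test, as the absolute log2 fold change divided by the square root of the F statistic. P-values measure the spread between these cultures of 1 line. Within groups, chi-square per degree of freedom of the counts was 3.06 to 8.34, so no pair of libraries agreed within sampling noise. Reads carried no molecular identifiers, and the depth of 47016302 to 60985825 counts covers counting error only. CPM use the TMM-scaled totals, and log2 CPM a prior count of 2. Members and gene lists were chosen with earlier results of these data known. Every member is named. Values of each library are given for all of them, and of the other pathway genes at most 3 per list are named, from those with the largest log2 fold change among the genes called. A gene that meets this rule is not reported here. Exon lengths and near-identical copies (at least 95% identity over at least 150 bases, BLAST 2.17.0) came from GENCODE v44, and overlapping genes from coordinates of the deposited table. Of the members, 22 overlapped another gene, 8 of them one with over 10% of their reads, and 13 had a near-identical copy. The alternatives are given in the closing section, DESeq2 1.42.0 among them. The methods were tested on simulated counts.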

Additional observations from a re-analysis of the deposited data

Results flagged for a closer look

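For 21 members the change at 12 h and the change at 24 h differed, by the direct edgeR test of 24 h against 12 h (adjusted p-value of at most 0.05). The log2 fold change of 24 h against 12 h is given for each. Among the sterol enzymes it was -0.34 for ACAT2, -0.39 for HMGCS1, -0.19 for MVD, -0.13 for IDI1, -0.23 for FDPS, -0.29 for FDFT1, -0.21 for SQLE, -0.18 for LSS, -0.12 for MSMO1, -0.15 for NSDHL, -0.27 for EBP and -0.16 for DHCR7. In the fatty acid arm it was -0.21 for ACLY, -0.35 for ACSS2, -0.19 for SCD, -0.18 for ACSL1, -0.16 for ELOVL5, -0.11 for FADS1 and -0.12 for FADS2. INSIG1 stood at -0.21, and ABCG1, at 0.31, was the member that was higher at 24 h. The calls of IDI1, MSMO1, NSDHL, DHCR7, ABCG1, FADS1 and FADS2 were each lost without at least 1 single library, as given with their values above.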

How the results depend on the processing

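Each of the 36 members was recomputed in 3 comparisons, 108 results in all, under 20 alternatives, and no result changed direction where it was called. Each of these changed 0 to 3 calls: DESeq2, size factors by median of ratios, unscaled libraries, no filter, at least 10 counts in 3 or in all libraries, a fit of only the 6 libraries concerned, the replicate block, and leaving out mitochondrially encoded genes. After seeing the data, 2 more were added to these, the removal of trends on GC content and length (4 calls changed) and TMM without the genes called at 1.5-fold (0). The calls changed by these were in SREBF1, SREBF2, FADS1, FADS2, MVD, SC5D and THRSP. With a fold change of at least 1.5 required, the members called were 0 higher and 1 lower at 12 h, 0 higher and 1 lower at 24 h, and 0 higher and 0 lower between the times.

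Leaving out each library in turn gave 17 to 20 members higher and 4 to 7 lower at 12 h, 7 to 11 higher and 7 to 9 lower at 24 h, and 0 to 1 higher and 15 to 20 lower for 24 h against 12 h. The count of higher members in the last comparison was 0 without either of 12 h replicates 1 and 2, or without 24 h replicate 1. At 12 h the median of the sterol enzymes was 0.16 to 0.21, at 24 h it was 0.013 to 0.060, and between the times -0.18 to -0.14. For the fatty acid arm these were 0.10 to 0.17, -0.10 to -0.0098, and -0.15 to -0.097. Also chosen after seeing the data, the median over genes in place of the mean moved the sterol minus fatty acid difference from 0.145 to 0.0497 at 12 h and from 0.111 to 0.0860 at 24 h, and leaving THRSP out of the fatty acid arm moved it to 0.0754 and 0.0602.

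No pairing of the samples by replicate number was seen. Deviations of same-numbered libraries from their group means correlated at -0.0367 to 0.0295, different numbers at -0.0597 to 0.0547, and 2 of 9 libraries correlated best with their own number. With 3 libraries per group, such correlations cannot show whether same-numbered cultures were handled together. With the replicate block, MVD became a call at 24 h (-0.10, edgeR adjusted p = 0.0387), and no other call changed. Depth was least for ABCA1, ABCG1 and THRSP, which had the fewest counts of the members, and 3 cultures per time limit the other values.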

Other observations

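Of 14 tested genes of fatty acid oxidation, 3 rose and 3 fell at 12 h, 2 rose and 3 fell at 24 h, and 1 rose and 3 fell from 12 to 24 h. Over all tested genes, 10.6% were called higher and 8.16% lower at 12 h, 11.6% and 9.48% at 24 h, and 3.03% and 3.05% from 12 to 24 h, and the count that rose at 24 h lay near that share. ACADM, the medium-chain acyl-CoA dehydrogenase, was at 91.9, 92.8 and 87.3 CPM at 0 h, 106, 112 and 107 CPM at 12 h and 129, 127 and 131 CPM at 24 h. Its 12 h libraries were above those of 0 h and its 24 h libraries above those of 12 h, and its log2 fold change was 0.26 ± 0.035 at 12 h (edgeR adjusted p = 8.96e-07), 0.51 ± 0.035 at 24 h (adjusted p = 8.13e-14) and 0.25 ± 0.035 for 24 h against 12 h (adjusted p = 6.76e-06). ANGPTL4, a secreted inhibitor of lipoprotein lipase, was at 1.05, 0.5 and 0.548 CPM at 0 h, 0.408, 0.246 and 0.351 CPM at 12 h and 0.533, 0.533 and 0.538 CPM at 24 h. Its 0 h replicate 1 was the highest library, and its log2 fold change was -1.06 ± 0.36 at 12 h (edgeR adjusted p = 0.0321) and -0.39 ± 0.34 at 24 h (adjusted p = 0.476). ECI2, an isomerase that handles unsaturated chains, had -0.26 ± 0.041 at 24 h (edgeR adjusted p = 6.18e-06).

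Of 8 genes of glycerolipid synthesis, 1 rose and 1 fell at 12 h, 1 rose and 2 fell at 24 h, and the counts of 1 lie near the share of all tested genes. None was called between the times by edgeR. GPAM, the mitochondrial acyltransferase that starts glycerolipid synthesis, had -0.25 ± 0.043 on the log2 scale at 24 h (edgeR adjusted p = 2.71e-05). LPIN1, a phosphatidate phosphatase, had 0.21 ± 0.034 at 12 h (edgeR adjusted p = 1.45e-05) and 0.12 ± 0.034 at 24 h (adjusted p = 0.00851).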
